A study of Homo sapiens with 12 samples.

Results

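The cytosolic ribosomal protein genes encode the proteins of the small and large subunits of the ribosome outside mitochondria. They were followed here in messenger RNA of T47D, a long-established line of luminal breast cancer cells that carry the estrogen receptor, with and without the tumour suppressor gene NF1 and with and without the PI3K inhibitor BYL719. Members were chosen by symbol: names of the form RPL or RPS with a number, with at most a closing A, X or L and a further digit, and also RPLP0, RPLP1, RPLP2, RPSA and FAU, without pseudogenes and without the RPS6 kinases. That gave 85 of the 27864 genes in the table, 33 of the small subunit and 52 of the large. Of these, 78 are core ribosomal protein genes and 7 are paralogs, second copies related to a core gene: RPL3L, RPL7L1, RPL10L, RPL22L1, RPL26L1, RPL39L and RPS27L. In all, 84 had enough counts to be tested, among 16081 tested genes. The paralog RPL3L had none in 9 libraries and 1 count each in NF1KO BYL719 replicates 1 and 3. RPL36AL, which also encodes a ribosomal protein, is not matched by the name rule and was followed in a second list.

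There were 4 groups. CTRL is the control line and NF1KO the line in which NF1, the gene for the RAS inhibitor neurofibromin, had been knocked out. Each received the vehicle DMSO or BYL719 (alpelisib), which inhibits the alpha isoform of PI3K, at 3 µM, and RNA was taken after 48 h. CTRL had 3 libraries under each treatment, and NF1KO had 2 under DMSO and 3 under BYL719. Replicate 1 of the NF1KO cells in DMSO was not analysed here. The series asks how loss of NF1 bears on resistance of breast cancer cells to inhibition of this PI3K isoform. Replicates are repeats of the same line, the sources used here do not say whether the lines are clones, and nothing ties a replicate to a separate knockout. The p-values below therefore measure the spread between these libraries, which may be technical in part, and a difference between the lines cannot be put down to NF1 alone.

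The 11 libraries held 53283945 to 60148876 counts. NF1 stood at a mean of 249 CPM, its count scaled to library size, in CTRL and 0.475 CPM in NF1KO in DMSO. The luminal markers ESR1, GATA3, FOXA1, KRT8, KRT18 and KRT19 were present in every library, with KRT8 between 3540 and 5120 CPM, while TFF1 lay between 2.95 and 7.71 CPM. Of the 8 markers of other cell types, PTPRC, CD3E, COL3A1 and KRT5 had at most 3 counts in a library, VWF, KRT14 and PECAM1 at most 0.709 CPM, and COL1A1 lay between 16.6 and 55.2 CPM. In bulk RNA, fewer cells of a type and less RNA per cell cannot be told apart.

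As background, a ribosome holds 1 copy of nearly every ribosomal protein, so that cells make these proteins in matched amounts. Their messengers typically begin with a C followed by a run of pyrimidines, the TOP element, which lets PI3K and mTORC1 signalling set how well they are translated. When mTORC1 is inhibited, the protein LARP1 binds the cap and the TOP element, represses translation of these messengers and can keep them stable. The stalk proteins RPLP0, RPLP1 and RPLP2 recruit translation factors to the large subunit. RPSA is a protein of the small subunit with a close relation to a laminin receptor, and FAU and RPS27A are made as fusions to a ubiquitin-like protein and to ubiquitin.

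The start of the messenger is shown for members that the results below turn on, so that genes that rose can be read beside genes that did not and paralogs beside their parents. Each line gives 10 bases before and 20 bases from the RefSeq start (GRCh38.p14), 5′ to 3′, with the C at the start and the pyrimidines that follow it in capitals. The first 5 rose with BYL719 in CTRL.
RPL13A, chr19:49487598-49487627, plus strand: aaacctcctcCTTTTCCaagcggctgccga
RPL3, chr22:39319604-39319633, minus strand: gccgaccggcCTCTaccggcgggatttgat
RPS27, chr1:153990752-153990781, plus strand: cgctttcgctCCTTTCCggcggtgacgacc
RPS4X, chrX:72277229-72277258, minus strand: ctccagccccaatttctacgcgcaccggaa
RPL10A, chr6:35468391-35468420, plus strand: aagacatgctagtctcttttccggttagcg
The next 3 are the stalk genes, of which RPLP0 and RPLP1 passed the test in CTRL and RPLP2 did not.
RPLP0, chr12:120201092-120201121, minus strand: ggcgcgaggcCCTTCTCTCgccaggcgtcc
RPLP1, chr15:69452808-69452837, plus strand: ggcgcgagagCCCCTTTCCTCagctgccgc
RPLP2, chr11:809957-809986, plus strand: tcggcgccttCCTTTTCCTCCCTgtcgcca
FAU, RPSA and RPS15 did not pass in that comparison.
FAU, chr11:65122115-65122144, minus strand: tcgcttcttcCTCTTTCTCgactccatctt
RPSA, chr3:39406710-39406739, plus strand: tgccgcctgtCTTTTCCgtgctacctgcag
RPS15, chr19:1438386-1438415, plus strand: aggcgcggacCaaagcgatctcttctgagg
The last set shows RPL22 and RPL26, each followed by its paralog, then RPL39, the parent of RPL39L, and RPS27L, the paralog of RPS27.
RPL22, chr1:6199576-6199605, minus strand: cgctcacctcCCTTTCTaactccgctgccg
RPL22L1, chr3:170870176-170870205, minus strand: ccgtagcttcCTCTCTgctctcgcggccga
RPL26, chr17:8383174-8383203, minus strand: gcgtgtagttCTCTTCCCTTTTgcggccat
RPL26L1, chr5:172958719-172958748, plus strand: tccaggggtcggcgaacgaaacgcggagct
RPL39, chrX:119791611-119791640, minus strand: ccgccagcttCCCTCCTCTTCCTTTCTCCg
RPS27L, chr15:63157458-63157487, minus strand: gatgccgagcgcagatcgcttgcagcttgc

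A TOP start, here a C at the RefSeq start followed by at least 4 pyrimidines without a break, was found in 44 of the 68 members with an entry (64.7%). The same letters stood at the start of 584 of 12312 other tested genes (4.74%) and of 1104 of all 27305 promoters in the table (4.04%). RPL13A, RPS27, all 3 stalk genes, FAU and RPSA had such a run. RPL3, whose run is 4 bases with the C, fell just short of it, and RPS4X, RPL10A and RPS15 had no run at the listed start. RPL22L1 had one like its parent RPL22, whereas RPL26L1 and RPS27L began with G. The listed start is 1 position per gene, and no match says only that these letters are not at that position. Within 5 bases of it such a run began in 52 of the 68 members (76.5%), 22.3% of other tested genes and 21.1% of all promoters. In the 250 bases before the start, on either strand, CCGGAAG, a core of ETS-family sites, stood in 29.4% of the members, 14.9% of other tested genes and 8.82% of all promoters. GGGCGG, the GC box, stood in 54.4%, 64.8% and 42.3%, TATAAA in 10.3%, 5.82% and 11.1%, and CACGTG, the E-box of MYC-type factors, in 5.88%, 8.91% and 6.49%.

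The members together took more of the counts after BYL719 in both lines. Their share was 3.41%, 4.13% and 3.95% of all counts in CTRL DMSO replicates 1, 2 and 3 (mean 3.83 ± 0.374, SD, n = 3) and 4.65%, 6.18% and 5.79% in CTRL BYL719 (5.54 ± 0.795, SD, n = 3). In NF1KO it was 4.25% and 4.29% in DMSO replicates 2 and 3 (4.27 ± 0.0279, SD, n = 2) and 4.71%, 4.83% and 5.69% in BYL719 (5.08 ± 0.536, SD, n = 3). The BYL719 libraries lay above the DMSO libraries of their line without overlap. In DMSO the lines did not overlap either, and in BYL719 they did. In both CTRL groups replicate 1 was the lowest, and its mean member level deviated from the group mean by -0.17 in DMSO and -0.28 in BYL719 on the log2 scale. Ribosomal RNA genes had mean shares of 9.84% in CTRL DMSO, 10.9% in CTRL BYL719, 9.19% in NF1KO DMSO and 10.98% in NF1KO BYL719. The 2 CTRL groups overlapped. The 2 NF1KO groups did not, with 8.47% and 9.92% in DMSO and 10.75%, 10.42% and 11.79% in BYL719. Outside ribosomal RNA the member shares were 4.26% in CTRL DMSO, 6.22% in CTRL BYL719, 4.71% in NF1KO DMSO and 5.71% in NF1KO BYL719. No test was made of these shares.

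**Figure D1:**
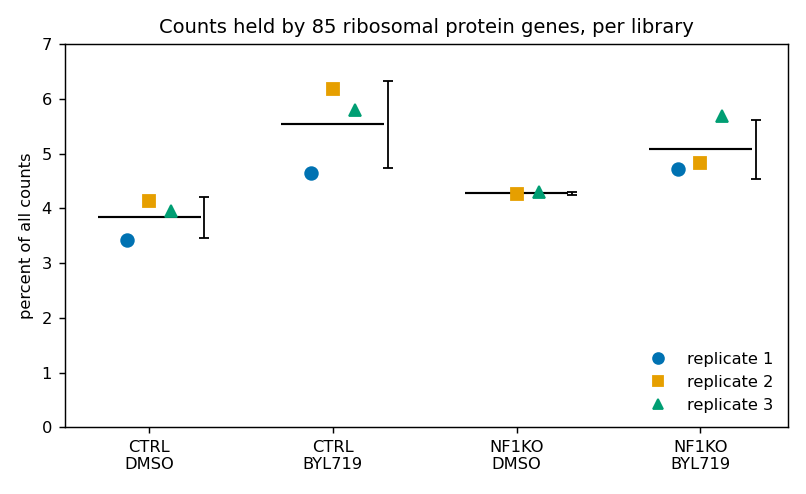
Percent of all counts that fell on the 85 ribosomal protein genes (vertical axis) in each of the 11 libraries by group, with replicate numbers as colours and shapes, the group mean as a line and the SD between libraries as a bar beside it. In each line the BYL719 libraries lie above the DMSO libraries, and replicate 1 is the lowest in both CTRL groups.

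BYL719 raised most ribosomal protein messengers in CTRL. Of 84 tested members, 69 rose and 2 fell (edgeR quasi-likelihood test, Benjamini-Hochberg adjusted p under 0.05 over all tested genes), where 22.6% of all tested genes rose and 21.8% fell, or 44.4% in all. The median log2 fold change was 0.52 over the members and 0.00 over all genes (0.00491). Both subunits took part: 26 of 33 small-subunit members rose and none fell, with a median of 0.50, and 43 of 51 large-subunit members rose and 2 fell, with a median of 0.56. Among the 78 core genes 68 rose and none fell, 77 had a log2 fold change above 0, and the largest was 1.12 and the lowest -0.25. The 2 that fell were the paralogs RPL39L and RPL26L1. In 52 members every BYL719 library lay above every DMSO library, and in 4 below, against 25.8% and 25.3% of all tested genes.

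RPL13A, a large-subunit protein also known for a role outside the ribosome in silencing inflammatory messengers, showed the largest rise. It stood at 416, 533 and 512 CPM in CTRL DMSO replicates 1 to 3 and at 832, 1197 and 1135 CPM in CTRL BYL719, a log2 fold change of 1.12 ± 0.14 (SE, edgeR adjusted p = 5.6e-05). The groups did not overlap, and the lowest treated library was replicate 1. RPL3, a core protein next to the peptidyl transferase centre, stood at 916, 1134 and 1091 CPM in DMSO and at 1635, 2222 and 2145 CPM in BYL719, a log2 fold change of 0.93 ± 0.12 (adjusted p = 4.71e-05). RPL23, which can also bind MDM2, stood at 543, 617 and 587 CPM in DMSO and at 886, 1166 and 1120 CPM in BYL719, with 0.86 ± 0.10 (adjusted p = 3.22e-05). For RPL3 and RPL23, too, the groups stood wholly apart, with replicate 1 lowest in each.

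On the small subunit the largest rises were of RPS27 and RPS4X. RPS27, a zinc-finger protein, stood at 146, 167 and 154 CPM in CTRL DMSO and at 225, 302 and 297 CPM in CTRL BYL719, a log2 fold change of 0.82 ± 0.11 (adjusted p = 0.000103). RPS4X, encoded on the X chromosome, stood at 472, 586 and 548 CPM in DMSO and at 746, 1044 and 1017 CPM in BYL719, with 0.81 ± 0.12 (adjusted p = 0.000263). Neither gene's groups overlapped. RPS18, RPL10A, RPL26 and RPL13 rose by 0.78, 0.78, 0.79 and 0.79.

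Of the stalk genes, RPLP0 and RPLP1 passed the test, and RPLP2 passed only under some alternatives. RPLP0 stood at 1825, 2305 and 2171 CPM in CTRL DMSO and at 2359, 3377 and 3206 CPM in CTRL BYL719, a log2 fold change of 0.50 ± 0.13 (adjusted p = 0.00814). RPLP1 had 0.50 ± 0.17 (adjusted p = 0.0342), and its groups overlapped through BYL719 replicate 1. RPLP2 had 0.35 ± 0.14 (adjusted p = 0.0694). It was called with the replicate number as a block in CTRL, where numbers were taken to pair the libraries (0.00244), and by DESeq2 (0.0438). RPLP1 was no longer called when DMSO replicate 1 of CTRL was left out (adjusted p = 0.112), nor without replicate 2 (0.124) or 3 (0.115) of CTRL BYL719. RPS27A, the ubiquitin fusion, rose by 0.33 ± 0.11 (adjusted p = 0.0309), a call that was lost without any 1 of CTRL DMSO replicates 1 and 3 and CTRL BYL719 replicates 2 and 3 (adjusted p between 0.0881 and 0.124).

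Of the 78 core genes, 10 did not pass: RPS2, RPS15, RPS21, RPS26, RPSA, FAU, RPL8, RPL35, RPL36 and RPLP2. RPSA and FAU are described by the naming rule, and RPS2, RPS15 and RPS26 were singled out after their values were seen. RPSA stood at 518, 622 and 567 CPM in CTRL DMSO and at 503, 692 and 636 CPM in CTRL BYL719, a log2 fold change of 0.10 ± 0.12 (adjusted p = 0.526). FAU stood at 134, 168 and 162 CPM in DMSO and at 132, 183 and 179 CPM in BYL719, with 0.09 ± 0.13 (adjusted p = 0.611). In both genes the groups overlapped, and replicate 1 was the lowest library on each side. RPS2, a protein at the messenger entry site, had 0.05 ± 0.11, and RPS15, of the head of the small subunit, had 0.17 ± 0.21. RPS26, which contacts the messenger at the exit site, was the core gene with a value below 0, at 7.83, 8.11 and 7.29 CPM in DMSO and 5.51, 7.22 and 6.82 CPM in BYL719, or -0.25 ± 0.11 (adjusted p = 0.096, and 0.0427 with the block in CTRL). Its deposited counts were few beside those of RPS26P11, a pseudogene treated with the other copies below.

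**Figure D2:**
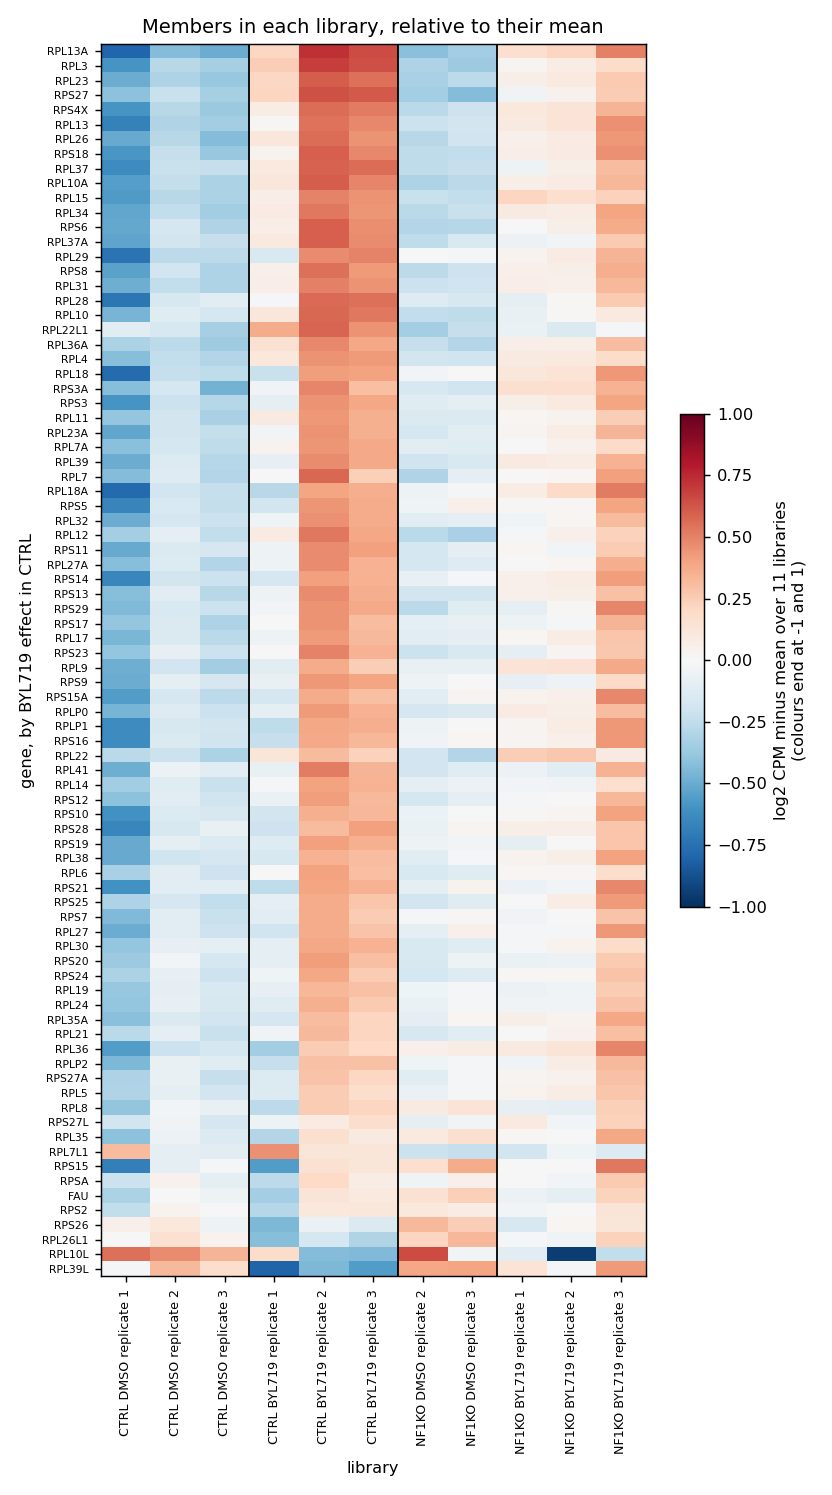
Each tested member (rows, ordered by the BYL719 effect in CTRL) in each of 11 libraries (columns), coloured by log2 CPM less the member's mean over all libraries, from blue at -1 to red at 1, with lines between groups. Most rows change together along the columns, palest in the NF1KO groups, and RPL39L, RPL10L, RPL26L1 and RPS26 at the bottom run the other way in CTRL.

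In NF1KO the same drug gave smaller values. Of 84 members 11 rose and none fell, or 13.1%, near the 10.3% of all tested genes that rose, while 8.47% fell and 18.7% changed in either direction. The median was 0.23 against 0.01 over all genes (0.0144), and 76 members had a value above 0. In 63 members each BYL719 library lay above both DMSO libraries, and in 2 below, against 28.4% and 26.2% of all tested genes. The 11 were RPL3, RPL10A, RPL12, RPL13A, RPL15, RPL22, RPL23, RPL26, RPL34, RPL36A and RPS27. RPL13A stood at 538 and 567 CPM in NF1KO DMSO and at 809, 836 and 1023 CPM in NF1KO BYL719, a log2 fold change of 0.69 ± 0.16 (adjusted p = 0.0117). RPL22 stood at 281 and 261 CPM in DMSO and at 380, 387 and 341 CPM in BYL719, with 0.45 ± 0.08 (adjusted p = 0.0036). In both genes the groups did not overlap. RPS27, RPL10A and RPL26 rose by 0.48, 0.45 and 0.44, and RPL3 and RPL23 by 0.43 and 0.44. The other 4 rose by 0.39 to 0.44.

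The number of calls in NF1KO rests on single libraries and on how the spread is estimated. It was 0 without NF1KO DMSO replicate 3 and 1 without replicate 2, where a lone DMSO library is assumed to vary like the other groups, and 3, 5 and 5 without NF1KO BYL719 replicates 3, 1 and 2. Without CTRL DMSO replicate 3, CTRL BYL719 replicate 3 or CTRL BYL719 replicate 1, which enter only through the shared spread, it was 7, 6 and 25. The shares of all tested genes called in these 8 fits were 4.8%, 6.38%, 18%, 13.5%, 11.2%, 17.4%, 17.3% and 24.8%, in that order. With the replicate number as a block in CTRL, where numbers were taken to pair the libraries, 43 rose and none fell. In that fit 34.3% of all genes were called in either direction. RPL13A was not called without NF1KO DMSO replicate 2 (adjusted p = 0.0975) or replicate 3 (0.0797), and RPL22 not without replicate 3 (0.0689). RPS27 and RPL23 needed both DMSO libraries and BYL719 replicate 3 of NF1KO. RPL3, RPL10A and RPL26 needed all 5 NF1KO libraries and CTRL BYL719 replicate 3, RPL10A and RPL26 also CTRL DMSO replicate 3, and RPL26 also CTRL DMSO replicate 2. For BYL719 in CTRL the corresponding count with the block was 79 (75 higher, 4 lower), and without CTRL BYL719 replicate 2 it was 46 (44 higher, 2 lower), where 56.1% and 38.5% of all tested genes were called.

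**Figure D3:**
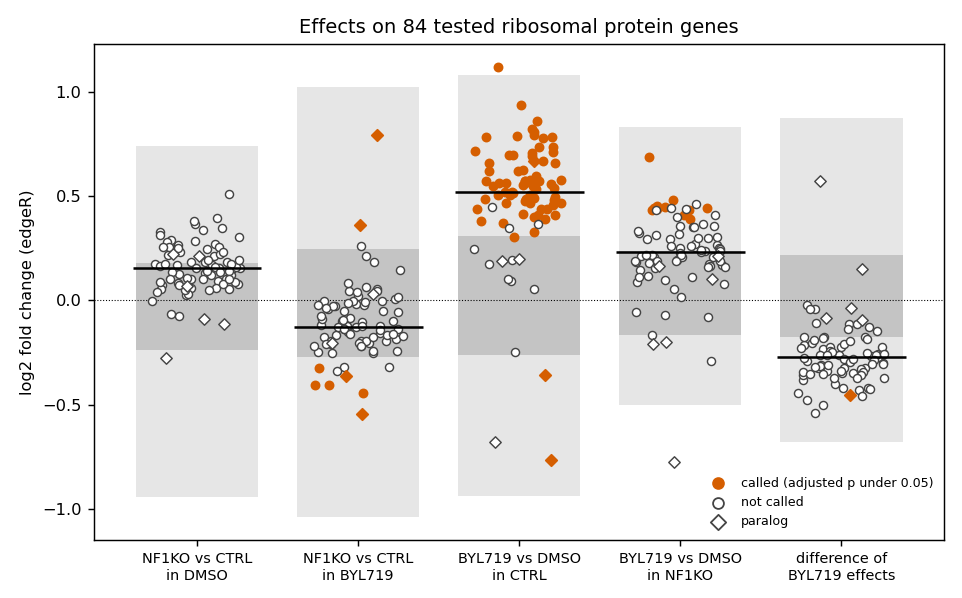
Log2 fold change of each of 84 tested members (points) in the 5 comparisons, with filled points for adjusted p under 0.05 and diamonds for paralogs, over bands from the 25th to the 75th and from the 5th to the 95th percentile of all tested genes. Black lines are the members' medians, which lie at 0.154, -0.128, 0.519, 0.233 and -0.273 from left to right.

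The direct test of the difference between the lines' responses called 1 member. Of 84, none had a larger BYL719 effect in NF1KO at the threshold and 1, RPL22L1, had a smaller one, against 5.68% and 3.71% of all tested genes, or 9.39% in all. The values leaned 1 way all the same: 82 members and all 78 core genes lay below 0, with a median of -0.27 against 0.01 over all genes (0.0112). By the same test 11 of 84 members had an unadjusted p under 0.05, a smaller share than the 3378 of all 16081 tested genes. Members move together between libraries, so the 78 signs are not independent of each other. RPL3 had -0.50 ± 0.17 (adjusted p = 0.0988) and RPL13A -0.43 ± 0.21 (adjusted p = 0.271). RPL39L, the member with the largest value above 0, had 0.57 ± 0.19 (adjusted p = 0.087, and 0.0101 with the replicate number as a block in CTRL).

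That count, too, depended on the libraries. It was 17 without CTRL BYL719 replicate 1, all below 0, and 21 without both CTRL replicate 1 libraries (1 above and 20 below 0), where 13.5% and 15.1% of all tested genes were called. It was 21 (1 above and 20 below) with the replicate number as a block in CTRL, where RPL3 had an adjusted p of 0.00124 and RPL13A of 0.0246, against 18.5% of all genes called. Leaving out CTRL DMSO replicate 1 gave 2 and leaving out NF1KO BYL719 replicate 3 gave 1, beside 8.08% and 8.87% of all tested genes. Leaving out any other library of a group of 3 gave 0, beside 6.73% to 7.71% of all tested genes. Across the 84 members the effects in the 2 lines, which share no library, had a Pearson r of 0.89 and a Spearman rho of 0.81. This describes genes measured in the same libraries, with shared deviations, and carries no p.

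**Figure D4:**
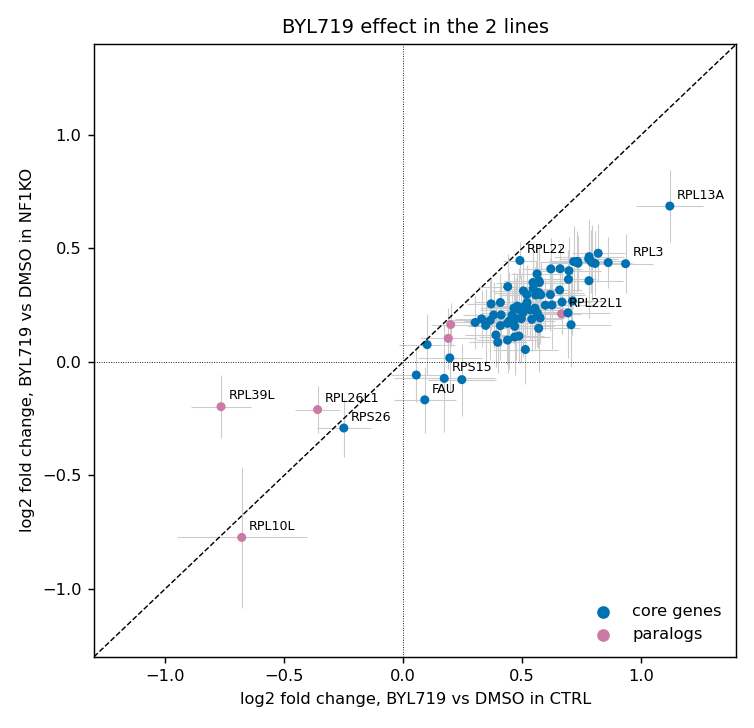
BYL719 effect in CTRL (horizontal axis) and in NF1KO (vertical axis) for 84 members as log2 fold changes with their SE, with core genes in blue, paralogs in pink and equality as a dashed line. All core genes lie below the dashed line, and RPL39L and RPL26L1 lie above it.

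Without the drug, no member passed the test between the lines. In DMSO, 0 of 84 members were higher and 0 lower in NF1KO than in CTRL by edgeR, with 0 at an unadjusted p under 0.05 and 0 by DESeq2 and by limma-voom, where 9.99% of all tested genes were higher and 10.3% lower, or 20.3% in all. The median was 0.15 against -0.01 over all genes (-0.0115), and 78 members lay above 0. In 46 members both NF1KO libraries lay above all 3 CTRL libraries, and in 1 below, against 27.9% and 28.2% of all tested genes. The largest value was that of RPS15, singled out for it, with 122, 183 and 194 CPM in CTRL and 219 and 253 CPM in NF1KO, or 0.51 ± 0.23 (adjusted p = 0.151). CTRL replicate 1 was far below the rest in this gene. Without CTRL BYL719 replicate 1 the count of members called was 3 of 84, all higher, where 26.6% of all tested genes were called.

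In BYL719 most members lay lower in NF1KO, few of them past the test. Of 84 members 2 were higher and 6 lower in NF1KO, where 20.8% of all tested genes were higher and 19% lower, or 39.8% in all. In 2 members the groups stood apart with NF1KO higher and in 4 with NF1KO lower, against 25.2% and 23.7% of all tested genes. The median was -0.13 against 0.00 over all genes (-0.00249), and 68 members lay below 0. The 6 were RPL22L1, RPL3, RPS27, RPL10, RPL7L1 and RPL23, and the 2 were RPL39L and RPL26L1. RPL3 stood at 1635, 2222 and 2145 CPM in CTRL and at 1405, 1446 and 1563 CPM in NF1KO, a log2 difference of -0.44 ± 0.12 (adjusted p = 0.00873). RPL10, a protein joined late to the large subunit, stood at 580, 797 and 770 CPM in CTRL and at 507, 540 and 573 CPM in NF1KO, with -0.41 ± 0.12 (adjusted p = 0.0171). In both, the NF1KO libraries lay below all CTRL libraries, of which replicate 1 was nearest. RPS27 and RPL23 had -0.41 ± 0.11 and -0.32 ± 0.10. Without CTRL BYL719 replicate 1 there were 34 calls (2 higher, 32 lower), without CTRL BYL719 replicate 2 there were 5, without NF1KO BYL719 replicate 1 there were 4, and without both CTRL replicate 1 libraries 48 (2 higher, 46 lower). The shares of all tested genes called in these fits were 39.9%, 35.6%, 33.9% and 46.7%, in that order. RPL10, RPS27 and RPL23 lost their calls without CTRL BYL719 replicate 2 (adjusted p = 0.07, 0.0505 and 0.093) or NF1KO BYL719 replicate 1 (0.0689, 0.0559 and 0.0861), and RPL10 and RPL23 also without CTRL BYL719 replicate 3 (0.0604 and 0.074), and RPL23 without NF1KO BYL719 replicate 2 (0.0755).

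Among the paralogs directions were mixed. In CTRL, BYL719 raised 1, lowered 2 and left 3 of the 6 tested ones uncalled. RPL39L, a paralog of RPL39 best known from testis and some tumours, stood at 19.6, 24.8 and 22.4 CPM in CTRL DMSO and at 11.3, 14.5 and 13.5 CPM in CTRL BYL719, a log2 fold change of -0.77 ± 0.13 (adjusted p = 0.000402). In NF1KO it stood at 25.9 and 26.1 CPM in DMSO and at 21.7, 19.6 and 26.6 CPM in BYL719, or -0.20 ± 0.14 (adjusted p = 0.353). Its CTRL groups stood apart and its NF1KO groups overlapped. Under BYL719 it was higher in NF1KO than in CTRL by 0.79 ± 0.13 (adjusted p = 0.00032). Its parent RPL39, at the exit tunnel, went the other way in CTRL, with 0.57 ± 0.14 (adjusted p = 0.00456).

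RPL26L1 also fell in CTRL while its parent rose. It stood at 19.2, 21.5 and 19.8 CPM in CTRL DMSO and at 14.4, 17.1 and 15.7 CPM in CTRL BYL719, a log2 fold change of -0.36 ± 0.10 (adjusted p = 0.00874). In NF1KO it stood at 22.4 and 24.3 CPM in DMSO and at 19.0, 18.7 and 22.7 CPM in BYL719, with -0.21 ± 0.11 (adjusted p = 0.186). RPL26, a protein of the large subunit, rose in CTRL by 0.79 ± 0.12 (adjusted p = 0.000301).

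RPL22L1 rose with its parent in CTRL. It stood at 29.9, 28.7 and 25.5 CPM in CTRL DMSO and at 41.5, 48.1 and 43.7 CPM in CTRL BYL719, a log2 fold change of 0.66 ± 0.08 (adjusted p = 3.98e-05). In NF1KO it stood at 25.3 and 27.3 CPM in DMSO and at 30.7, 28.99 and 31.6 CPM in BYL719, with 0.21 ± 0.09 (adjusted p = 0.127, and 0.0492 with the replicate number as a block in CTRL). All 3 treated CTRL libraries lay above the other 8. Its BYL719 effect was smaller in NF1KO by a log2 difference of -0.45 ± 0.12 (adjusted p = 0.035), whereas that of RPL22, whose product can lower RPL22L1 messenger, was -0.04 ± 0.11 (adjusted p = 0.874). Under BYL719 RPL22L1 was lower in NF1KO than in CTRL by -0.55 ± 0.08 (adjusted p = 0.000173). The difference of effects kept its sign in all 11 fits that each left out a library and lost its call in 8 of them, with adjusted p between 0.0552 and 0.191. The 3 that kept the call left out CTRL DMSO replicate 1, CTRL BYL719 replicate 1 and NF1KO BYL719 replicate 3.

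RPL7L1, which acts in ribosome assembly more than in the ribosome itself, had 0.19 ± 0.12 in CTRL and 0.10 ± 0.13 in NF1KO, neither called, though the CTRL value was called with the replicate number as a block in CTRL (adjusted p = 0.00554), while its parent RPL7 rose in CTRL by 0.57 ± 0.15 (adjusted p = 0.0078). In CTRL its replicate 1 libraries stood highest, at 192 CPM against 145 and 143 CPM in DMSO and at 212 CPM against 167 and 168 CPM in BYL719. Its lower level in NF1KO under BYL719, -0.36 ± 0.12 (adjusted p = 0.0299), was not called without CTRL BYL719 replicate 1 (adjusted p = 0.1), NF1KO BYL719 replicate 1 (0.0964) or NF1KO BYL719 replicate 3 (0.0752), nor when libraries were scaled by total counts (0.0597). RPS27L, the paralog of RPS27, had 0.20 ± 0.08 in CTRL and 0.16 ± 0.09 in NF1KO, neither called, with an adjusted p of 0.0321 in CTRL under that block. RPL10L, a testis gene, stood between 0.365 and 1.18 CPM over all libraries, and its BYL719 values were -0.68 ± 0.27 in CTRL (adjusted p = 0.0623, and 0.0344 under the block) and -0.77 ± 0.31 in NF1KO (adjusted p = 0.104).

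**Figure D5:**
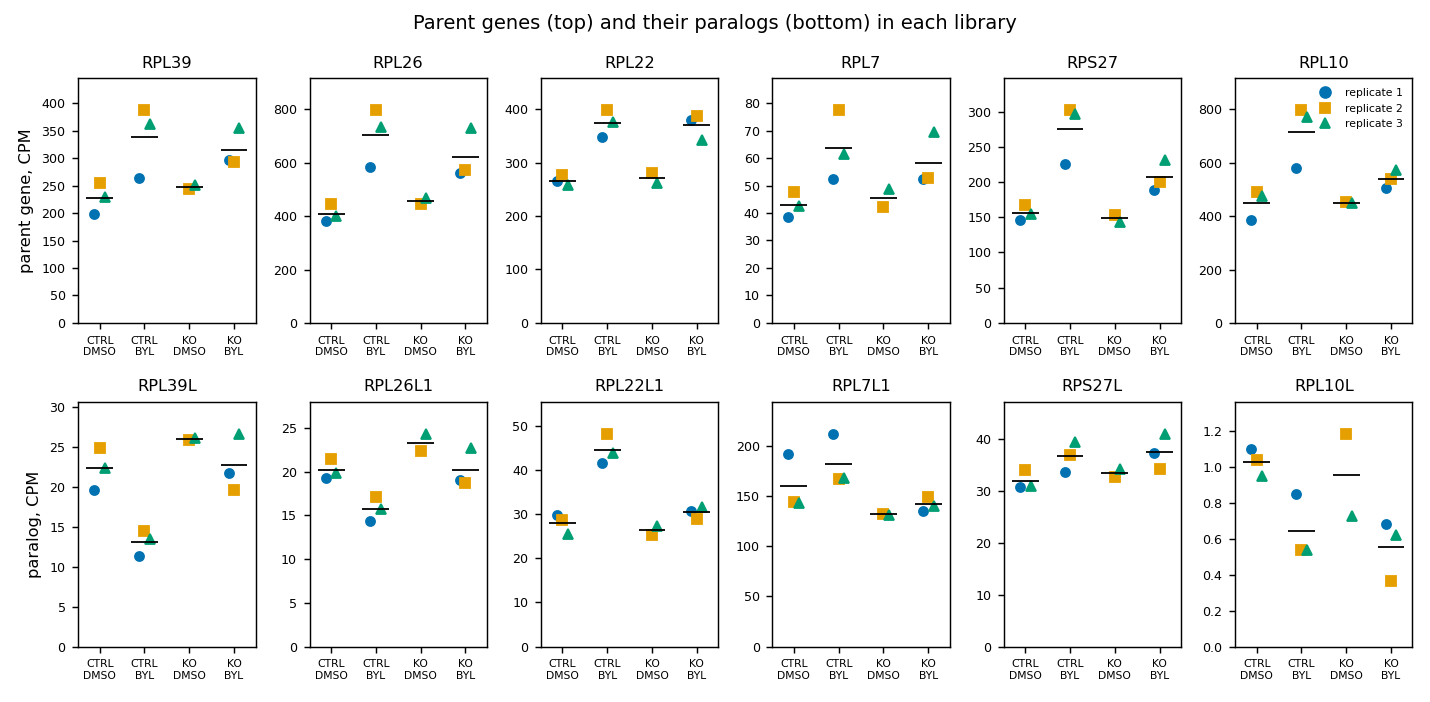
CPM of 6 parent genes (top) and their paralogs (bottom) in each library, with replicate numbers as colours and shapes, group means as lines and every axis starting at 0. RPL39L and RPL26L1 are lowest in CTRL BYL719, where their parents RPL39 and RPL26 are highest on average.

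Within groups the core members moved nearly as 1. After each library's deviation from its group mean was taken, the median correlation over pairs of the 78 core genes was 0.963, against 0.141 over pairs of 529 other abundant genes (mean log2 CPM of at least 8). These are correlations over 11 libraries with 7 degrees of freedom, and all points share the libraries' depth and quality. The median residual SD was 0.189 on the log2 scale over the 84 members, 0.138 over all tested genes and 0.0987 over the 529 abundant genes. The sets differ in level, since some members lie well below the limit for the abundant genes. Taking libraries of the same number, 77, 80 and 80 of 84 members were higher in BYL719 than in DMSO in CTRL replicates 1, 2 and 3, with median log2 differences of 0.40, 0.57 and 0.56. In NF1KO these were 73 and 80 members in replicates 2 and 3, with medians of 0.17 and 0.41.

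Members with and without a TOP start at the listed position rose in like shares in CTRL, a comparison that was not tested. Of 43 core genes with the run 37 rose, with a median of 0.51, and of 20 without it at the listed start 18 rose, with a median of 0.54. Of the 584 other tested genes with such a start, 25.7% rose and 21.7% fell, with a median of 0.03. Short messengers outside the ribosomal protein genes are a further comparison: of 1512 other tested genes with a transcript under 1000 bases, 18.3% rose and 23.2% fell, with a median of -0.04. Across the 78 core genes the GC content of the transcript, 42.1% to 62.1%, had a Spearman rho of 0.57 with the line difference in DMSO, -0.46 with the BYL719 effect in NF1KO and -0.21 with that in CTRL. Across other tested genes rho was 0.13, -0.10 and 0.06, and its part in the members' values was not tested. Members were higher in NF1KO in DMSO by a median of 0.19 in the 39 core genes with the higher GC content and 0.13 in the other 39. GC content was taken from the shortest matched transcript of each gene, which is long for some, with 7686 bases for RPL37.

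A list of 22 translation factors and ribosome-associated genes known as TOP messengers or close partners was followed beside the members. Of these 16 rose and 1 fell with BYL719 in CTRL, with a median of 0.38, and 6 rose and none fell in NF1KO, with a median of 0.17. The shares that rose were 72.7% in CTRL and 27.3% in NF1KO, against 22.6% and 10.3% of all tested genes. In CTRL 4.55% fell, against 21.8%. EEF1A1, the elongation factor that delivers aminoacyl-tRNA, rose from 1586 ± 188 to 3023 ± 543 CPM in CTRL (SD, n = 3), a log2 fold change of 0.93 ± 0.13 (adjusted p = 0.000143), and in NF1KO by 0.52 ± 0.15 (adjusted p = 0.0327). EIF4B, a cofactor of the helicase EIF4A, rose by 0.71 in CTRL and 0.60 in NF1KO, and PABPC1, the poly(A)-binding protein, by 0.66 and 0.43. NAP1L1, a histone chaperone, rose by 0.49 in CTRL and 0.52 in NF1KO. The 1 that fell in CTRL was RPL36AL, the intronless copy of RPL36A, by -0.22 ± 0.08 (adjusted p = 0.0394), named after its value was seen. Between the lines 0 were called in DMSO, where 20.3% of all tested genes were, with 3 at an unadjusted p under 0.05. In BYL719 HNRNPA1 was higher in NF1KO (0.33) and PABPC1 and EIF4B were lower (-0.31 and -0.20). Those were 4.55% and 9.09% of the list, against 20.8% and 19% of all tested genes. For the difference of effects HNRNPA1 alone was called, at 0.41 ± 0.09 (adjusted p = 0.0133), or 4.55% higher against 5.68% of all tested genes.

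Among 24 regulators of ribosomal protein synthesis, 5 rose and 9 fell with BYL719 in CTRL and 3 rose and 5 fell in NF1KO. The shares that rose, 20.8% and 12.5%, were near the 22.6% and 10.3% of all tested genes. The shares that fell, 37.5% and 20.8%, lay above the 21.8% and 8.47% of all tested genes, which was not tested. MYC, a transcription factor that drives ribosome genes, rose from 18.5 ± 1.32 to 40.9 ± 3.97 CPM in CTRL (SD, n = 3), a log2 fold change of 1.14 ± 0.09 (adjusted p = 1.18e-06). In NF1KO it rose from 29.8 ± 0.314 (SD, n = 2) to 44.4 ± 3.61 CPM (SD, n = 3), or 0.57 ± 0.10 (adjusted p = 0.0025), and the difference of effects was -0.57 ± 0.13 (adjusted p = 0.0176). MXI1, a MYC antagonist, rose by 1.09 and 0.86, and EIF4E, the cap-binding factor, fell by 0.57 and 0.32. The other genes that rose in CTRL were PDCD4, TSC2 and MNT, and in NF1KO PDCD4, and the others that fell in NF1KO were EIF4EBP1, EIF4G1, MTOR and RPS6KB2. Of these TSC2, MNT, EIF4G1, MTOR and RPS6KB2 were named after their values were seen. In DMSO EIF4EBP1, the repressor of EIF4E, was higher in NF1KO by 0.97 ± 0.09, as were MYC (0.69) and EIF4E (0.36), and PDCD4, an inhibitor of EIF4A, was lower (-1.10). In BYL719 7 were higher and 4 lower in NF1KO, or 29.2% and 16.7% against 20.8% and 19% of all tested genes. EIF4EBP1 and EIF4E were higher by 0.66 and 0.60, and PDCD4 (-0.78), MXI1 (-0.42), TSC1 (-0.45) and TSC2 (-0.39) were lower. EIF4EBP2 was the other gene called for the difference of effects, at 0.35 ± 0.10 (adjusted p = 0.0379).

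Mitochondrial ribosomal protein genes, which serve the separate ribosomes of mitochondria, mostly lay lower after BYL719. Of 78, it raised 2 and lowered 31 in CTRL, with a median of -0.20, and raised none and lowered 19 in NF1KO, with a median of -0.22. In CTRL 2.56% rose and 39.7% fell, against 22.6% and 21.8% of all tested genes. In NF1KO 0% rose and 24.4% fell, against 10.3% and 8.47%. The 2 that rose were MRPS21 (0.38) and MRPS35 (0.16), and MRPS5 fell by 0.42 in CTRL and by 0.39 in NF1KO. In NF1KO against CTRL 11 were higher and 1 lower in DMSO and 21 higher and 1 lower in BYL719, with medians of 0.19 and 0.17. The shares higher were 14.1% in DMSO and 26.9% in BYL719, against 9.99% and 20.8% of all tested genes. The share lower was 1.28% in each, against 10.3% and 19%. For the difference of effects 1 was called, MRPS17 (0.35), or 1.28% higher against 5.68% of all tested genes. MRPL30 was the 1 lower in NF1KO under both treatments (-0.30 in DMSO and -0.18 in BYL719). The 529 abundant genes had medians of -0.07 in CTRL and -0.05 in NF1KO for BYL719.

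Near-identical copies limit what the counts of some members mean. The GENCODE annotation names 1146 pseudogenes after 78 of the members, and 31 pseudogenes of 19 members have counts in the table. Pseudogenes of RPSA, RPSAP58 in the main, held 140% of the counts of RPSA, RPS26P11 held 244% of those of RPS26, and copies of RPL13A held 47.9% of its own. Reads may have been split between gene and copy, so the levels of these 3 are uncertain. With copies added to their gene, BYL719 in CTRL gave 1.06 ± 0.15 for RPL13A, 0.09 ± 0.13 for RPSA and -0.23 ± 0.11 for RPS26, and 69 members rose and 2 fell as before. RPL17, RPL36, RPL36A, RPS10 and RPS29 overlap another annotated gene that held at least 20% of their counts, among them the read-through genes RPL17-C18orf32, RPL36A-HNRNPH2 and RPS10-NUDT3, and their values share that limit.

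Per length of messenger (CPM per kilobase of the shortest matched transcript) in CTRL DMSO, RPS24, RPS29 and RPS18 were the highest at 2011, 1927 and 1873. The lowest were RPL3L at 0, RPL10L at 1.27 and RPS27L at 4.96, though the RPS27L model of 6434 bases is long for its coding part and understates its level. Some core genes also had long models, beside a median of 723 bases over the members. RPL37, RPL27A, RPL37A and RPS23 had 7686, 4916, 3647 and 3437 bases. The order by length therefore depends on the models used. RPS26 was the lowest core gene, at 12.4 CPM per kilobase, with the pseudogene limit given above. RPS24 stood at 994, 1174 and 1074 CPM in CTRL DMSO and rose with BYL719 by 0.41 ± 0.11 (adjusted p = 0.011), and RPS29 rose by 0.55 ± 0.16 (adjusted p = 0.0135). Neither was called when replicate 2 of CTRL BYL719 was left out (adjusted p = 0.052 and 0.0551). RPL21 and RPL23A, members with many pseudogenes in the table, rose by 0.37 ± 0.10 and 0.58 ± 0.13, and RPL21 was not called without that library (adjusted p = 0.0513).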

How the data were processed

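Poly(A)-selected RNA was sequenced as single reads of 76 bases from stranded libraries, per the labels' protocols. Per the submitters' processing notes, the authors used STAR 2.5.2a, SAMtools 1.7, Picard 2.9.2, edgeR and the build hg38. Raw counts of 11 libraries, 1 value per Entrez gene, were deposited by the authors. The counting tool, its treatment of reads with several matches and the annotation are not given in the sources used here.

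The tests used edgeR 4.0.16 under R 4.3.3 (filterByExpr, TMM, quasi-likelihood fit of all 4 groups, 7 residual degrees of freedom, 2-sided tests). Steps were tested on simulated data, with 100 genes changed 1.5-fold and 100 changed 2-fold in each comparison. Of those changed 1.5-fold, 14 were recovered for the difference of effects and 43 to 62 for the other comparisons. Of those changed 2-fold, 66 were recovered for the difference and 69 to 83 for the others. The lack of a call, above all for the difference, therefore does not show that levels or effects were equal. P-values were adjusted over the 16081 tested genes. The SE is the log2 fold change divided by the square root of F, and CPM use TMM-scaled library sizes. Alternatives were other scalings and filters, DESeq2 1.42.0, limma-voom (limma 3.58.1), replicate blocks, fewer libraries and pseudogene counts added. CTRL libraries of the same number deviated together (r across genes of 0.59, 0.34 and 0.32 between DMSO and BYL719). Pairs of replicate 1 with another number gave -0.42 to -0.36. DMSO 2 with BYL719 3 gave 0.23 and DMSO 3 with BYL719 2 gave 0.18, so the pairing of replicates 2 and 3 is less clear. The 2 NF1KO pairs of the same number gave 0.08 and 0.15. Numbers were therefore taken to pair libraries in CTRL only, and that block was chosen after seeing the data.

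Start windows come from RefSeq (GRCh38.p14), in which 68 of 85 members matched by Entrez gene identifier, and transcript lengths from GENCODE by symbol. Named members are the 5 largest rises and falls called per comparison, the paralogs and their parents, the stalk genes, RPSA, FAU, RPS27A, the 3 highest and 3 lowest per length and the 5 with most pseudogenes in the table, and per other list at most 3 called genes a comparison. The members and lists were chosen with earlier results of these data known.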

Additional observations from a re-analysis of the deposited data

Results flagged for a closer look

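The BYL719 effect on RPL22L1 differed between NF1KO and CTRL by -0.454 on the log2 scale (edgeR adjusted p = 0.035), by the direct test of the difference. The gene rose in all 3 treated CTRL libraries by a log2 fold change of 0.66, and the value in NF1KO was 0.21 (adjusted p = 0.127). The call for the difference was lost in 8 of 24 alternative fits, each of which left out 1 library. It was the 1 call among 84 tested members (1.19%), where 9.39% of all tested genes were called.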

How the results depend on the processing

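Other scalings, filters, limma-voom and added pseudogene counts left every count of calls within 1.5 times and no median changed sign. BYL719 in NF1KO called 11 members, 19 by DESeq2 and 26 from the compared libraries alone. It called 60 with the replicate block over all numbers, 71 with that block within each genotype and 43 with it in CTRL alone. Without both CTRL replicate 1 libraries it called 41. The shares of all tested genes called were 18.7%, 22.1%, 26.8%, 29%, 41.9%, 34.3% and 33.3%, in that order. The difference of effects called 1, and 4 by DESeq2, 4, 42 and 21 under those 3 blocks and 21 without both CTRL replicate 1 libraries. Of all tested genes these fits called 9.39%, 11.9%, 13.9%, 27%, 18.5% and 15.1%. NF1KO against CTRL in BYL719 called 8, 22 with the block over all numbers and 48 without both CTRL replicate 1 libraries. These stood beside 39.8%, 49.3% and 46.7% of all tested genes. In DMSO the same fits called 0, 1 and 1, beside 20.3%, 25.9% and 26%. Leaving out 1 library of a group of 3 gave 46 to 78 calls for BYL719 in CTRL and 3 to 25 in NF1KO. It gave 4 to 34 for the lines in BYL719, 0 to 3 in DMSO and 0 to 17 for the difference. The shares of all tested genes called were 37.6% to 46.7%, 11.2% to 24.8%, 33.9% to 42.4%, 16.4% to 26.6% and 6.73% to 13.5%, in that order. The cause was not tested. No called member named in the text changed sign. Leaving out 1 library gave -0.00768 to 0.228 for FAU and -0.0143 to 0.368 for RPS15, both lowest without CTRL DMSO replicate 1, and -0.0316 to 0.175 for RPS2, below 0 without CTRL DMSO replicate 1, BYL719 replicate 2 (-0.00746) or BYL719 replicate 3 (-0.00297). In the genotype block NF1KO BYL719 replicate 1 has no partner. With 2 or 3 libraries a group, effects under the members' spread of 0.179 (log2 SD of their mean level) are not resolved.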

Other observations

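Factors for the assembly and quality control of free ribosomal proteins moved in both directions. Of 17, BYL719 raised 7 and lowered 3 in CTRL (MDM2, NVL and TSR2), with a median of -0.06, and lowered 1 in NF1KO, PDCD2L. Against CTRL, NF1KO was higher for 2 in DMSO, GRWD1 (0.41 ± 0.08) and PDCD2L (0.49 ± 0.13), chaperones of free ribosomal proteins or of subunit assembly, and for 3 in BYL719, GRWD1, PDCD2L and TSR2, and SBDS was lower in BYL719. SBDS, which helps release EIF6 from the large subunit, had the only called difference of BYL719 effects on this list, at -0.46 ± 0.12 (adjusted p = 0.0281). These genes were named after their values were seen.

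Among pseudogenes in the table, RPL13P5 went against its parent: it fell with BYL719 in CTRL by a log2 change of -1.34 ± 0.24 (adjusted p = 0.000845) and in NF1KO of -0.98 ± 0.25 (adjusted p = 0.0172), with 448 counts over all libraries, whereas RPL13 had 0.79 ± 0.15 and 0.44 ± 0.16. It was singled out after its values were seen.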
